A study of Mus musculus with 12 samples.

Results

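Chemosensory receptor genes, which include the largest gene family of the mouse, serve the organs of smell and taste, and their DNA was examined here in T cells. The families were the odorant receptors (Olfr), the vomeronasal receptors of type 1 (Vmn1r) and type 2 (Vmn2r), the trace amine-associated receptors (Taar) and the bitter taste receptors (Tas2r). Receptor gene areas were chosen by their symbol and by their mean 5-hydroxymethylcytosine (5hmC) signal over the 5 5hmC libraries, which had to reach 1. Of 2070 receptor gene areas among 37544 gene areas in all, 1934 met this rule: 1402 of Olfr, 271 of Vmn1r, 206 of Vmn2r, 16 of Taar and 39 of Tas2r. These are called members below. The level of 5hmC therefore describes the members and tests nothing.

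The data came from DNA immunoprecipitation sequencing, in which sheared, denatured genomic DNA is captured with an antibody and sequenced. Mouse Th1, Th2, induced regulatory (iTreg), Th17 and naive T cells each gave 1 library with an antibody against 5hmC and 1 with an antibody against 5-methylcytosine (5mC). Th17 cells also gave 1 library with control IgG and 1 of input DNA without antibody, which makes 12 libraries. The design text names CD2(Cre)Tet2(f/f) mice, in which the CD2 promoter drives Cre in lymphoid cells, and wild-type littermates on a mixed background, but the labels do not say from which animals a library came, nor their age or number. Each value is the authors' signal over a gene area, rounded to 1 decimal, and its read depth is unknown.

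5hmC is made from 5mC by the Tet enzymes and is known to collect in the bodies of active genes, while 5mC falls mainly on cytosines followed by guanine (CpG). Odorant receptors couple to the G protein Golf in olfactory neurons, where each neuron expresses a single receptor, and are coded in 1 exon. Vmn1r and Vmn2r receptors serve the vomeronasal organ, and Vmn2r genes are long because several exons code their large extracellular domain. Taar receptors detect amines, and Tas2r receptors sit on taste cells. Most of these genes stand in tandem arrays of related copies.

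The 250 bases before the start of 6 genes are printed here, from RefSeq on GRCm38.p6, with each CpG in capitals. Olfr279, Olfr282 and Olfr283 come from the chromosome 15 cluster with the highest 5mC. Taar9 and Taar7f belong to the Taar cluster and differed in 5mC, and Olfr8 was among the odorant receptors lowest in 5hmC. These 6 were picked after their values were seen.
Olfr279: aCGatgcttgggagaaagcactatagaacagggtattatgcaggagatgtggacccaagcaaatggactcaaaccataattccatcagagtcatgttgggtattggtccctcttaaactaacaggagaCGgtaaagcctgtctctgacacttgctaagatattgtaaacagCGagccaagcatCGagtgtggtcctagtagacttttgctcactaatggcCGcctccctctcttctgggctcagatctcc
Olfr282: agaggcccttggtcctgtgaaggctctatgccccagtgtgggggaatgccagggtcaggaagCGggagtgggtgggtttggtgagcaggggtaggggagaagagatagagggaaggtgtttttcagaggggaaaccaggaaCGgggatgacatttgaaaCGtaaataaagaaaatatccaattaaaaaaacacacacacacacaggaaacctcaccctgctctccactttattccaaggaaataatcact
Olfr283: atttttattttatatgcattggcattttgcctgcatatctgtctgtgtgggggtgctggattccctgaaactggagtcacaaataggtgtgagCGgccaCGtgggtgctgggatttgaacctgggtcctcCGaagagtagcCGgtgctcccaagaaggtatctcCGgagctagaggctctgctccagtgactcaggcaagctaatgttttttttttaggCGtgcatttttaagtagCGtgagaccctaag
Taar9: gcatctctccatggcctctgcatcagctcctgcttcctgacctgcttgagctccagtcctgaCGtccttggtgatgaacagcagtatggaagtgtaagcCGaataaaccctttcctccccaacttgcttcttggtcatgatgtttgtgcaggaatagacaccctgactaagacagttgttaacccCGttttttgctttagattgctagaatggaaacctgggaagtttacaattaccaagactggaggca
Taar7f: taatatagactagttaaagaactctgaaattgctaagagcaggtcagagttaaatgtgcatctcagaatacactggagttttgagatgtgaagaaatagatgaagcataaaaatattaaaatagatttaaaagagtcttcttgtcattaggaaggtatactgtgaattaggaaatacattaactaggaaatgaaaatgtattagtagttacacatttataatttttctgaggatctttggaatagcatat
Olfr8: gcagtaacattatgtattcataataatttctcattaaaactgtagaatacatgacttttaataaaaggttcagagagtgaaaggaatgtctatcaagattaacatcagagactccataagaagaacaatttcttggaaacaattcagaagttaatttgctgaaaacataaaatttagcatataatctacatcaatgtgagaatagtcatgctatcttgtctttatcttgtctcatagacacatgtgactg
They lie at chr15:98497224-98497473 on the plus strand (Olfr279), chr15:98437220-98437469 on the plus strand (Olfr282), chr15:98379198-98379447 on the minus strand (Olfr283), chr10:24109535-24109784 on the minus strand (Taar9), chr10:24049260-24049509 on the plus strand (Taar7f) and chr10:78954957-78955206 on the plus strand (Olfr8). The stretches hold 5 CpGs for Olfr279, 3 for Olfr282, 7 for Olfr283, 3 for Taar9, and 0 for Taar7f and Olfr8. The motif CG reads the same on both strands. It occurred in 56.9% of the 1215 member stretches that the table holds and in 91.6% of the 27025 stretches of this length over all genes, with a median of 1 and of 5 CpGs. G and C made up a median of 34.8% of the bases in members and 52% over all genes. All other coordinates below are those of the deposited table on mm9 and cannot be set against these.

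The cell labels were checked at defining genes. The 5hmC library labelled iTreg had Il17a at 31.3 and Il17f at 32.8, and that labelled Th17 had 8.8 and 5.3, while Foxp3 was 25.3 in the library labelled iTreg and 30.9 in that labelled Th17. These labels therefore stand in some doubt, and the values below carry them as deposited.

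In the T cells the members lay low under both antibodies. The median 5hmC signal of the members was 4.6 in Th1, 4.5 in Th2, 4.8 in the library labelled iTreg, 4.5 in that labelled Th17 and 3.9 in naive cells. Over all 37544 gene areas the medians were 10.9 in Th1, 11.0 in Th2, 11.0 in iTreg, 9.9 in Th17 and 12.0 in naive cells. The 5mC median of the members was 0.2 in Th1, Th2, iTreg and Th17 and 0.3 in naive cells, against 0.7 in Th1, 0.6 in Th2, iTreg and Th17 and 0.7 in naive cells over all gene areas. The members' input was lower too, with a median of 1.2 against 1.7, and so was their IgG signal, with 0.4 against 0.8. Their 5hmC ranked at a median percentile of 17.9 to 21.1 among all gene areas across the 5 libraries, their 5mC at 14.3 to 19.6 and their input at 23.1. A 5mC value of 0.2 is 2 steps of the deposited rounding, so differences between such values are coarse.

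**Figure D1:**
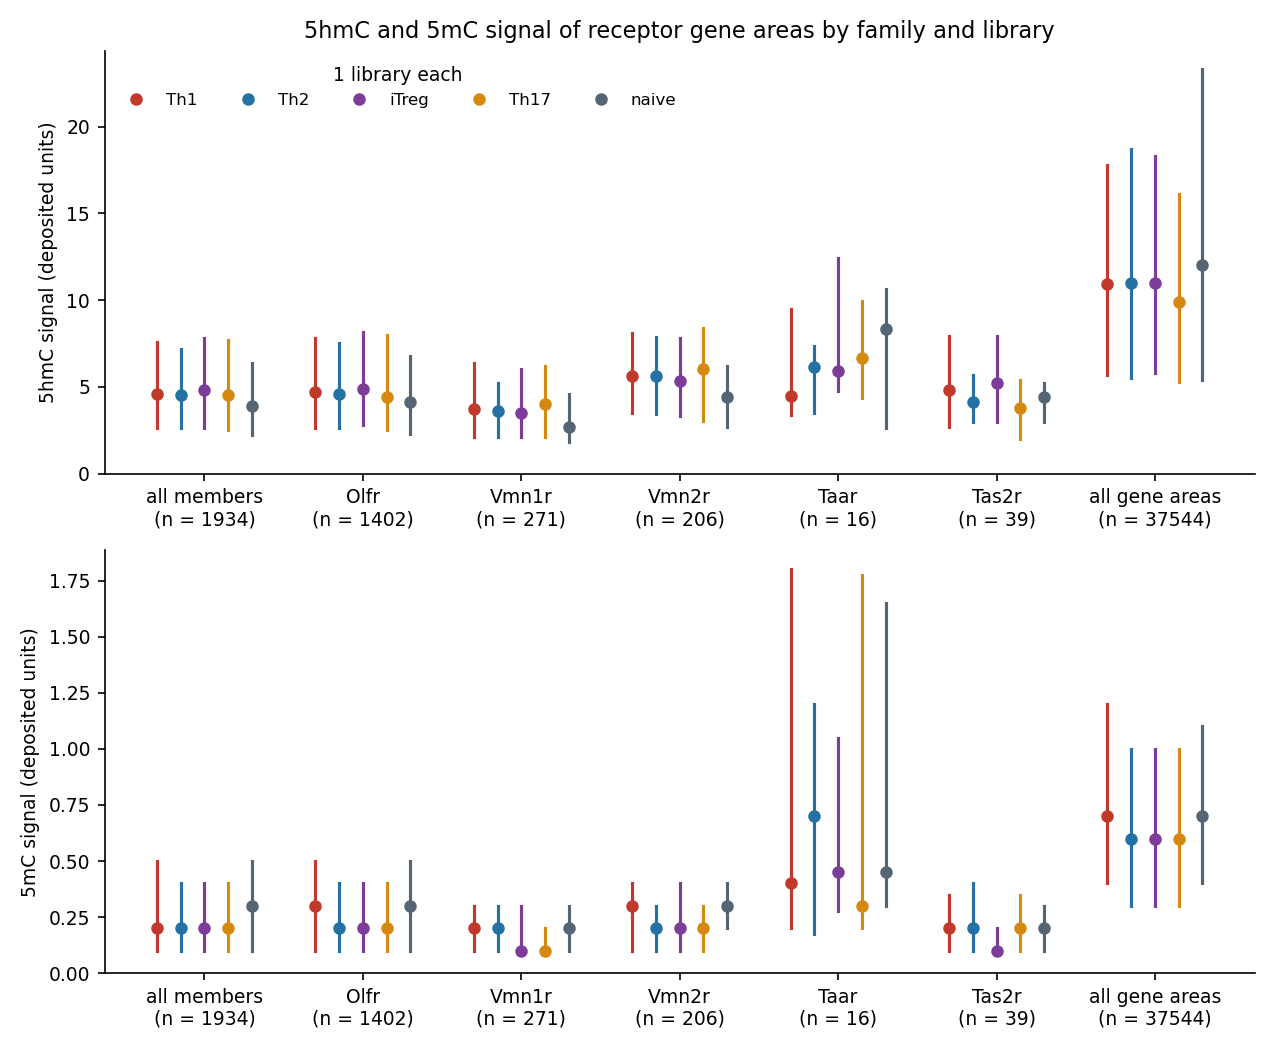
Median 5hmC (top) and 5mC (bottom) signal in deposited units for the members, each receptor family and all gene areas. Points are medians over gene areas in 1 library and lines run over the middle 50% of gene areas. The 5hmC medians of all members lie between 3.9 and 4.8, under the 9.9 to 12.0 of all gene areas.

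Relative to input the members still lay below the average gene area. On the log2(value + 0.2) scale, where 0.2 is added so that zeros can be used, the members' median 5hmC over input was 1.68, against 2.59 over all gene areas. Their 5mC over input was -1.65, against -1.05. Input came from Th17 cells alone and serves all cell types here. The 5mC value was under input in most members: in Th17 cells it exceeded input in 37 of 1934 members (1.91%) and exceeded IgG in 720 (37.2%). The 5hmC value of the library labelled Th17 exceeded IgG in 1779 members (92.0%). These 3 shares were not counted over all gene areas. There the median Th17 5mC of 0.6 likewise lay under the median IgG of 0.8 and input of 1.7, and the median Th17 5hmC of 9.9 above them. Medians do not give such shares, so it is not known whether these counts are particular to the members.

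The families differed in level. Vmn2r members had a median 5hmC, averaged over the 5 libraries, of 5.59, with 5mC of 0.25 and input of 1.05. Vmn1r members had the lowest 5hmC, 3.88, with 5mC of 0.18 and input of 1.1. The Olfr values were 4.87, 0.26 and 1.3 for 5hmC, 5mC and input. Taar members had 6.68, 0.51 and 1.35, and Tas2r members had 4.78, 0.20 and 1.1. Over input, median 5hmC was 2.31 in Taar, 2.15 in Vmn2r, 1.68 in Tas2r, 1.62 in Olfr and 1.49 in Vmn1r on the log2 scale. The same order did not hold for 5mC over input, which was -1.14 in Taar, -1.40 in Vmn2r, -1.65 in Olfr, -1.77 in Vmn1r and -1.77 in Tas2r. Vmn2r areas, with introns, are longer than the others and average over more DNA. Members whose symbol ends in -ps, which marks a pseudogene, numbered 530, and their median 5hmC was 4.74 against 4.84 in the other 1404. Their median 5mC was 0.24 against 0.26.

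The minimum on 5hmC removed 136 receptor areas: 17 of Olfr, 74 of Vmn1r, 44 of Vmn2r and 1 of Tas2r. Of these, 112 (82.4%) had an input under 0.5 and 73 an input of 0, while 47 members (2.43%) had an input under 0.5 and 0 members an input of 0. Most removed areas thus had little signal from DNA without antibody as well. Olfr1475, Vmn1r-ps41 and Vmn1r113 lay just inside the minimum at a mean of 1 and Olfr733 at 1.02. Vmn2r-ps15 and Vmn1r-ps137 lay just outside at 0.98 and Olfr1146-ps1 at 0.96. Near-identical receptor copies can share or lose reads in alignment, and how such reads were counted is not given in the sources used here.

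5hmC and 5mC were compared across the 5 cell types, after each library was centred on its median gene area, with limma and cell type as a block. Over the receptor areas without the 5hmC minimum, 1978 had signal in at least 5 of the 10 antibody libraries and could be fitted, and 92 could not. Calls needed a Benjamini-Hochberg adjusted p under 0.05 in limma and at least a 2-fold difference. Of these 1978, 39 (1.97%) were higher and 420 (21.2%) lower in 5hmC relative to 5mC after centring. Over all 36437 gene areas fitted with the same centring, the shares were 10.0% higher and 13.7% lower. With values as deposited, not centred, 1945 receptors were higher and 0 lower. The uncentred share over all gene areas was not counted, but the median gene area itself had 5hmC of 11.3 and 5mC of 0.66. The median centred log2 difference was -0.40 over the 1978 receptors and 0.0047 over all gene areas. The 0.2 added before the log is close to the members' median 5mC of 0.24. With 1 added instead, 17 receptors were higher and 776 lower. By rank among all gene areas, all 2070 receptor areas had median percentiles of 16.5 to 19.6 in 5hmC and 13.1 to 18.1 in 5mC. Ranks thus did not place them lower in 5hmC than in 5mC, and the part of the added value in the calls was not tested. By family after centring, where 0 receptors of any family were lower uncentred, 27 of 1417 Olfr, 6 of 284 Vmn1r, 6 of 222 Vmn2r, 0 of 16 Taar and 0 of 39 Tas2r were higher. Lower after centring were 297 Olfr, 69 Vmn1r, 43 Vmn2r, 5 Taar and 6 Tas2r. For the members alone, the counts were 39 higher and 374 lower of 1932 fitted. The rule used 5hmC, so those counts are only a description.

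The members called higher in 5hmC after centring included some with strong signal in every library. Vmn1r-ps106, the member of its family with the most 5hmC, had 5hmC of 33.1 in Th1, 69.4 in Th2, 65.6 in iTreg, 64.5 in Th17 and 29.9 in naive cells, and mean 5mC of 0.58. Its log2 difference between 5hmC and 5mC was 2.33 after centring (standard error 0.29). Olfr875, an odorant receptor of the chromosome 9 array, had 5hmC of 42.5 in Th1, 54.5 in Th2, 43.3 in iTreg, 53.0 in Th17 and 23.9 in naive cells, and mean 5mC of 0.54. Its difference was 2.13 (standard error 0.22). In both genes the naive library was the lowest of the 5. At the other end, Olfr283 had a difference of -3.15 (standard error 0.29) and Taar9 one of -2.47 (standard error 0.30).

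Each differentiated cell type was then set against naive cells. With 1 library in each group there is no test and no replicate check, and all 4 differences share the naive library. The members' median log2 difference in 5hmC from naive was 0.27 in Th1, 0.21 in Th2, 0.26 in iTreg and 0.22 in Th17, whereas over all 35986 gene areas with the same minimum it was -0.19, -0.17, -0.17 and -0.29. Scaling the libraries by median ratios moves these differences up by about 0.19 in Th1, 0.15 in Th2, 0.16 in iTreg and 0.30 in Th17, for members and other gene areas alike. The medians of the members and of all gene areas stood on opposite sides of 0 in the deposited values. A median above 0 was not particular to receptors. In 6417 other gene areas of like 5hmC, described below, it was 0.085 in Th1, 0.030 in Th2, 0.087 in iTreg and 0.037 in Th17.

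At least 2-fold higher 5hmC than in naive cells was found in 385 members in Th1 (19.9%), against a background of 7.04% of all gene areas with the same minimum. The counts were 384 members (19.9%) against 7.19% in Th2, 379 (19.6%) against 7.04% in iTreg and 375 (19.4%) against 7.04% in Th17. At least 2-fold lower were 223 members (11.5%) against 15.5% in Th1, 221 (11.4%) against 14.8% in Th2, 197 (10.2%) against 14.4% in iTreg and 249 (12.9%) against 23.7% in Th17. Members were higher more often and lower less often than gene areas in general in these libraries. Other gene areas of like signal, described below, were lower about as often as the members. With median-ratio scaling, Th1 had 495 members higher and 169 lower, Th2 had 461 higher and 183 lower, iTreg had 487 higher and 155 lower, and Th17 had 561 higher and 186 lower. That scaling shifts all gene areas alike, and their shares under it were not counted, so these counts have no background beside them. In all 4 differentiated libraries at once, 77 members (3.98%) were at least 2-fold higher, against 399 of all gene areas (1.11%), and 31 (1.60%) at least 2-fold lower, against 1912 (5.31%).

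The same values for other weak or short gene areas lay between those of the members and of all gene areas. Among 6417 other gene areas whose mean 5hmC lay within the middle 50% of the members (3.16 to 7.16), the median difference of the 4 libraries' mean from naive was 0.05, and 8.32% were at least 2-fold higher in that mean. Among 1181 other gene areas of about the members' median length of 942 bp, give or take 0.1 kb, it was -0.08, with 9.74% at least 2-fold higher. The members' median was 0.24, with 14.7% at least 2-fold higher, against -0.19 and 4.73% over all gene areas. These backgrounds were chosen after the data had been seen. Over the 5 5hmC libraries, the standard deviation was a median 0.427 of the mean in members and 0.305 over all gene areas.

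**Figure D2:**
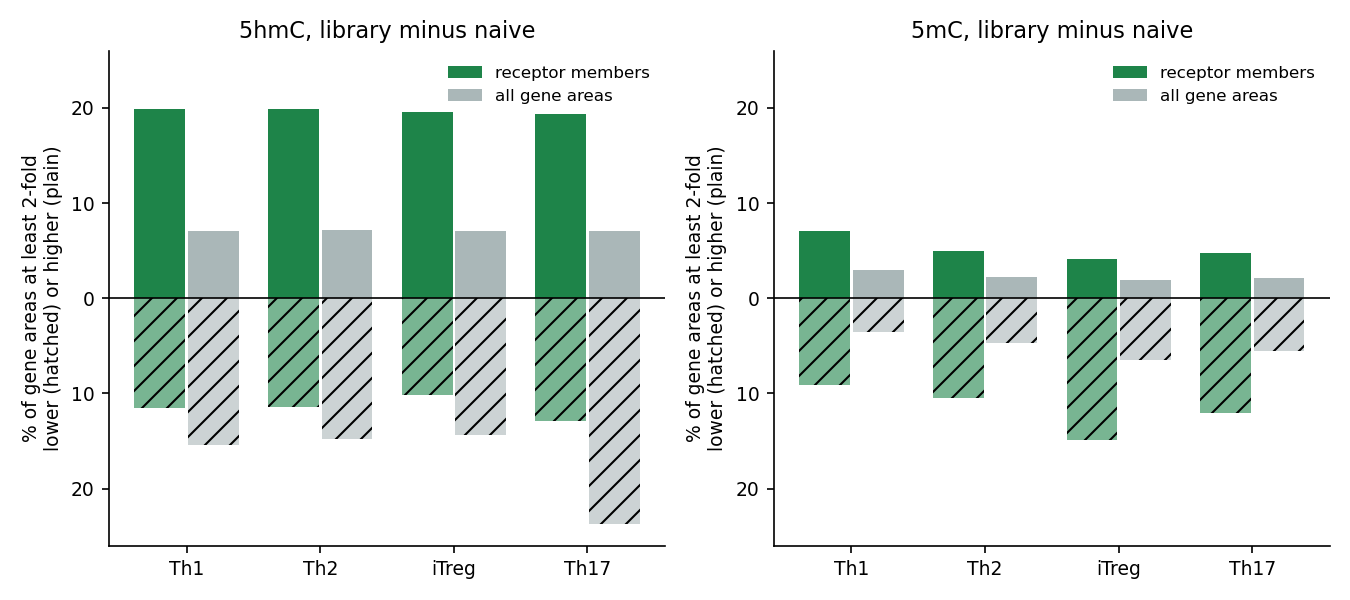
Share of gene areas at least 2-fold higher (plain bars, upward) or lower (hatched bars, downward) than in naive cells, for 5hmC (left) and 5mC (right), with receptor members left of all gene areas that met the same 5hmC minimum. In 5hmC 19.4% to 19.9% of members were higher, against 7.04% to 7.19% of all gene areas.

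By family, the mean of the 4 differentiated libraries minus naive had a median of 0.36 in Vmn1r, 0.36 in Vmn2r, 0.20 in Olfr, 0.10 in Taar and 0.05 in Tas2r. Without the 5hmC library labelled iTreg the last pair turned sign, to -0.15 in Taar and -0.02 in Tas2r. The naive library held the single lowest 5hmC value in 590 members (30.5%) and the single highest in 233 (12.0%). Over all gene areas it held the lowest in 19.4% and the highest in 38.8%. For a member such as Vmn1r218, 5hmC was 38.7 in Th1, 34.4 in Th2, 37.6 in iTreg, 29.9 in Th17 and 14.9 in naive cells. All 4 differentiated values lay above the naive one, by 1.22 on the log2 scale on average. Vmn2r4 likewise had 29.5 in Th1, 25.8 in Th2, 26.7 in iTreg and 24.7 in Th17, against 17.1 in naive cells.

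The largest differences from naive cells came from weak members. Olfr1269 had 5.1 in Th1, 2.0 in Th2, 1.7 in iTreg, 5.6 in Th17 and 0.2 in naive cells, a mean log2 difference of 3.07. Vmn1r56 had 2.4 in Th1, 5.7 in Th2, 6.9 in iTreg, 5.5 in Th17 and was listed at 0 in naive cells, so no fold is given. In the other direction, Vmn1r91 had 0.5 in Th2 and was listed at 0 in Th1, iTreg and Th17, against 6.0 in naive cells, so no fold is given. Olfr1309 had 0.7 in Th1, 0.8 in Th2, 2.5 in iTreg and 0.7 in Th17, against 8.4 in naive cells (-2.82). All are small on the scale of the table, and the number of reads behind them is unknown.

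Some strong members were lower in differentiated cells. Olfr9 had 11.6 in Th1, 9.0 in Th2, 12.6 in iTreg and 6.4 in Th17, against 43.8 in naive cells. Olfr1235-ps1, the strongest member of the largest array, had 34.8 in Th1, 23.8 in Th2, 22.4 in iTreg and 22.0 in Th17, against 72.8 in naive cells. Olfr1509, a receptor for a sulphur odorant of mouse urine, lies inside the deposited area of Tcra, the T cell receptor alpha locus, on chromosome 14 (53070067 to 53071076), so signal of that locus cannot be told apart from its own. It had 9.6 in Th1, 31.5 in Th2, 47.4 in iTreg and 5.9 in Th17, against 72.0 in naive cells, with the 4 differentiated values far apart. Its 5mC lay between 0.4 and 1.5.

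In 5mC more members were at least 2-fold below naive cells than above, under both scalings. The members' median log2 difference from naive was 0 in Th1, -0.07 in Th2, -0.26 in iTreg and 0 in Th17. At least 2-fold higher were 137 members (7.08%) against 2.99% of all gene areas in Th1, 95 (4.91%) against 2.2% in Th2, 79 (4.08%) against 1.86% in iTreg and 91 (4.71%) against 2.16% in Th17. At least 2-fold lower were 177 (9.15%) against 3.52% in Th1, 203 (10.5%) against 4.68% in Th2, 288 (14.9%) against 6.54% in iTreg and 233 (12.0%) against 5.55% in Th17. Members passed 2-fold more often than gene areas in general in both directions. Of the 1181 other gene areas of about the members' length, the share at least 2-fold higher was 6.69% for Th1, 5.08% for Th2, 3.22% for iTreg and 5.17% for Th17, and the share at least 2-fold lower was 7.79% for Th1, 12.1% for Th2, 14.5% for iTreg and 13.4% for Th17. The members' shares lay near these. With median-ratio scaling, which shifts 5mC by -0.02 in Th1, 0.14 in Th2, 0.25 in iTreg and 0.24 in Th17, Th1 had 117 members higher and 149 lower, Th2 had 135 higher and 166 lower, iTreg had 121 higher and 225 lower, and Th17 had 136 higher and 183 lower. With a pseudocount of 1 in place of 0.2 the counts fell to at most 5 higher and 19 lower in any library, so the calls depended on values near 0. Shares over all gene areas were not counted under that scaling or pseudocount. The standard deviation over the 5 5mC libraries was a median 0.593 of the mean in members and 0.249 over all gene areas.

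Receptor areas on 1 chromosome were joined into a cluster where the gap between neighbours was at most 1 Mb, which gave 100 clusters. The 35 with at least 10 members held 1777 of the 1934. Median 5hmC of the members was under that of the median gene area (11.3) in 34 of the 35 clusters, and median 5mC under that of the median gene area (0.66) in 33. Input was under the median gene area in 29. Across the 35 clusters the medians of 5hmC and 5mC had a Spearman correlation of 0.83. Input correlated with 5hmC at 0.52 and with 5mC at 0.64. The points share libraries and their input varies with them, so this is a description only. In 31 clusters the median 5hmC difference from naive of the 4 differentiated libraries' mean lay above 0, and in 33 that of 5mC lay below 0. Over all gene areas with the same minimum, that median was -0.19 in 5hmC and -0.12 in 5mC. The direction in 5mC was thus not particular to the clusters.

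**Figure D3:**
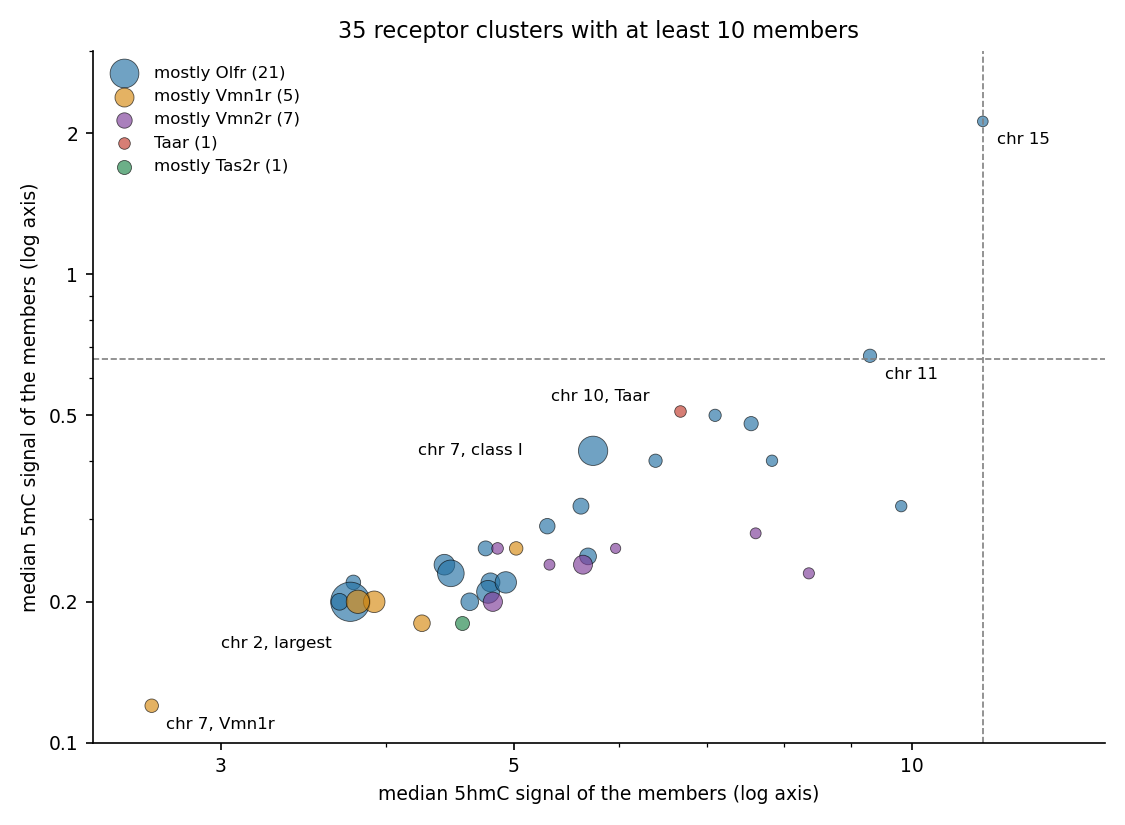
Median 5hmC against median 5mC of the members in the 35 clusters with at least 10 members, both averaged over 5 libraries, on log axes. Point area grows with the number of members and dashed lines mark the median gene area. The chromosome 15 cluster stands at 11.3 and 2.12, the next highest 5mC median being 0.67 on chromosome 11.

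The cluster on chromosome 15 (98016443 to 98329901), with 12 odorant receptors, stood apart from the other arrays. Its median 5mC was 2.12, the next highest median being 0.67 in the cluster on chromosome 11 (58268416 to 59427726), and its median 5hmC of 11.3 equalled that of the median gene area. Its median input of 2.35 and median IgG of 2.90 were above the median gene area as well. The signal was not even along it. Olfr288, Olfr287, Olfr286 and Olfr285, at the low end of the coordinates, had mean 5mC between 0.64 and 1.06 and mean 5hmC between 6.34 and 10.7. Further on, Olfr284 to Olfr278-ps1 had mean 5mC between 1.52 and 4.84.

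Olfr279 had 5hmC of 111.7 in Th1, 115.3 in Th2, 111.0 in iTreg, 103.9 in Th17 and 68.5 in naive cells, with 3.0 in IgG and 2.9 in input. Its 5mC was 6.5 in Th1, 5.5 in Th2, 3.5 in iTreg, 4.1 in Th17 and 4.6 in naive cells, which gave it the highest mean 5mC of all members (4.84 ± 1.18, SD over 5 cell types). Olfr278-ps1, a pseudogene area of 274 bp next to it, had 5hmC of 116.3 in Th1, 127.5 in Th2, 120.4 in iTreg, 113.0 in Th17 and 60.5 in naive cells. Both were lowest in naive cells, and the 4 differentiated libraries lay close together.

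Olfr282 had 5hmC of 51.4 in Th1, 83.9 in Th2, 66.8 in iTreg, 68.3 in Th17 and 39.0 in naive cells, with mean 5mC of 3.42. Its neighbour Olfr283 had 5hmC of 7.4 in Th1, 3.5 in Th2, 4.3 in iTreg, 2.8 in Th17 and 4.9 in naive cells, with 5mC of 4.3 in Th1, 3.0 in Th2, 1.0 in iTreg, 3.5 in Th17 and 3.9 in naive cells. The mean 5mC of Olfr283 was 3.14, near that of Olfr282, while their 5hmC did not overlap in any library. Olfr283 had an IgG signal of 10.5 and Olfr282 one of 7.9, and the IgG of Olfr282 exceeded its 5mC in all 5 cell types. In Olfr283 IgG exceeded the 5hmC and 5mC values of all 5 cell types. The part of antibody background in these values was not tested. Besides Olfr283, limma called Olfr284 and Olfr281 lower in 5hmC relative to 5mC and Olfr278-ps1 higher after centring, while uncentred 0 receptors were lower.

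**Figure D4:**
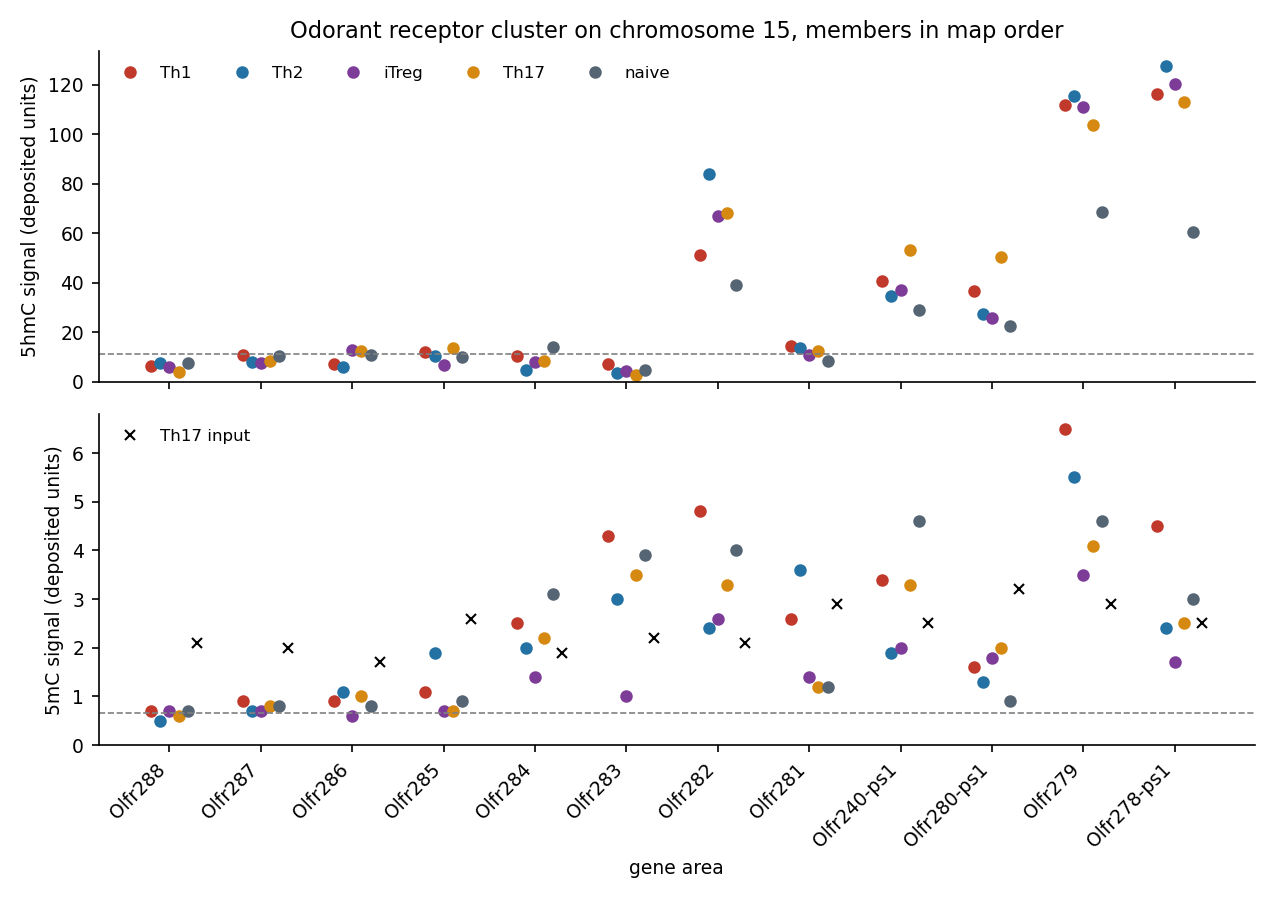
5hmC (top) and 5mC (bottom) signal of the 12 members of the chromosome 15 cluster in map order, with 1 point per library, crosses for Th17 input and a dashed line at the median gene area. Olfr279 and Olfr278-ps1 reach 103.9 to 127.5 in the differentiated 5hmC libraries, and Olfr283 has 5mC of 1.0 to 4.3 with 5hmC of 2.8 to 7.4.

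The Taar cluster on chromosome 10 (23640211 to 23829339) was divided within itself. Its 16 genes stand in a row from Taar1 to Taar9, with the expanded mouse subfamilies Taar7 and Taar8 between Taar6 and Taar9. The 9 Taar7 and Taar8 members had mean 5mC between 0.10 and 0.72 (median 0.24), and the 7 others between 0.98 and 2.84 (median 1.62). The groups did not overlap in mean 5mC. Input was 0.7 to 1.5 in the Taar7 and Taar8 members and 1.1 to 3.1 in the others, which overlapped. This split by subfamily was made after the values were seen and was not tested. The 5hmC means overlapped, at 2.38 to 7.84 (median 4.36) and 4.88 to 22.6 (median 10.6).

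Taar1, known from the brain and not from olfactory neurons, had 5hmC of 25.8 in Th1, 18.4 in Th2, 24.5 in iTreg, 26.6 in Th17 and 17.8 in naive cells, and 5mC between 2.0 and 2.7. Its input of 3.1 was the highest of the family. Taar3 had 5hmC of 3.4 in Th1, 6.6 in Th2, 24.1 in iTreg, 7.2 in Th17 and 11.9 in naive cells, with the highest mean 5mC of the family, 2.84. Taar5, the receptor for trimethylamine, had 16.9 in Th1, 6.9 in Th2, 25.2 in iTreg, 9.0 in Th17 and 12.3 in naive cells. In both the library labelled iTreg was the highest. Taar9 had 5hmC of 15.5 in Th1, 4.3 in Th2, 4.8 in iTreg, 3.7 in Th17 and 1.8 in naive cells, while Taar7f had 2.6 in Th1, 5.6 in Th2, 4.6 in iTreg, 4.2 in Th17 and 2.1 in naive cells. Mean 5mC was 2.00 for Taar9 and 0.22 for Taar7f. Near-identical Taar7 copies could share reads.

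**Figure D5:**
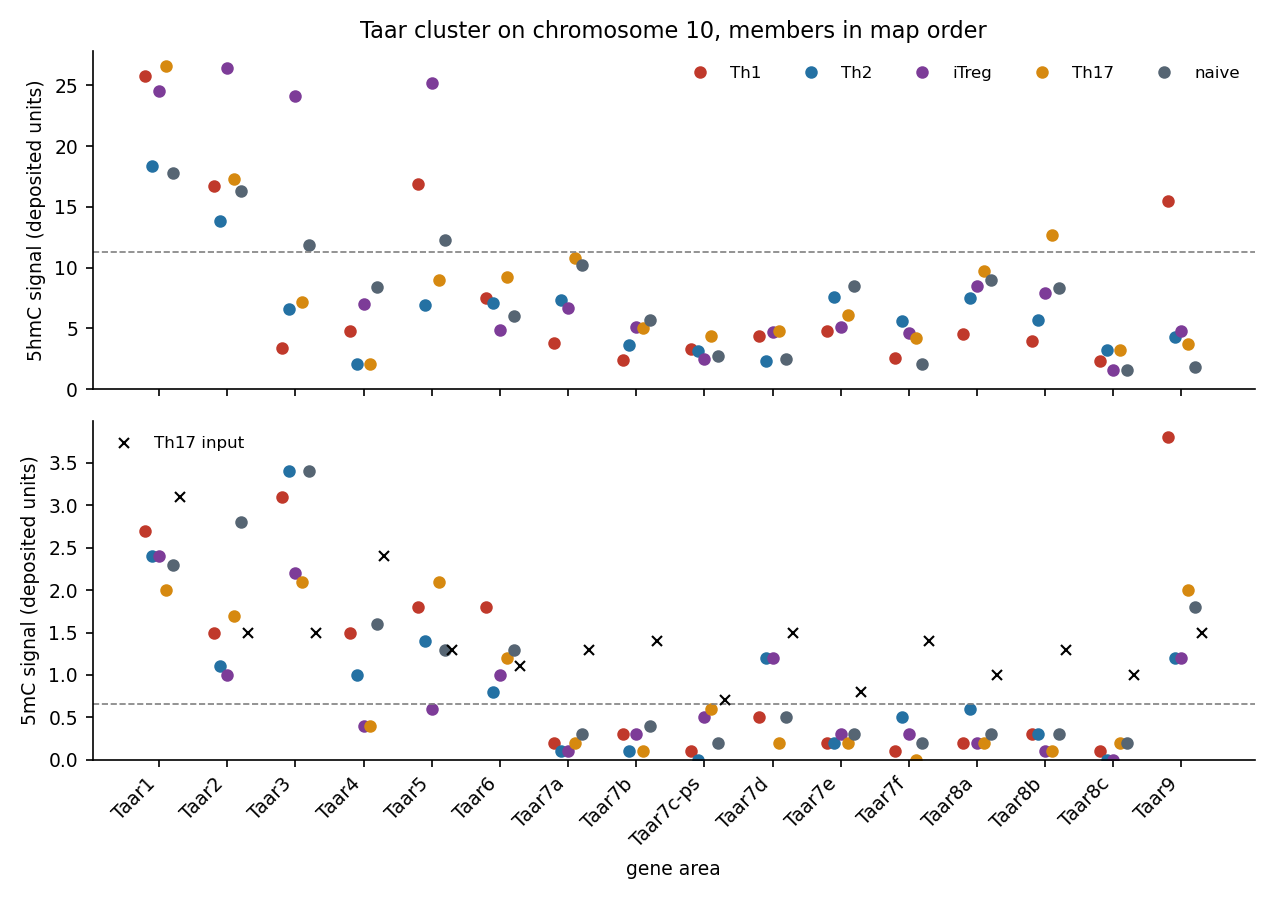
5hmC (top) and 5mC (bottom) signal of the 16 Taar members in map order, with 1 point per library, crosses for Th17 input and a dashed line at the median gene area. Mean 5mC lies between 0.10 and 0.72 in the Taar7 and Taar8 members and between 0.98 and 2.84 in the others.

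A second kind of difference appeared between arrays of chromosome 7. All class I odorant receptors, the older class that is also found in fish, stand in 1 array there, which is the cluster from 109625286 to 112517830 with 155 members. Its median 5mC was 0.42, and 44 of its members (28.4%) lay above the median gene area in mean 5mC. Among the 1247 other Olfr members the median was 0.26 and 118 (9.46%) lay above. The neighbouring cluster of 78 members (113821047 to 116037918) had a median of 0.22 and 0 members above. Some odorant receptor arrays outside class I lay near the class I median 5mC or above it, with the chromosome 15 array at 2.12. On chromosome 11 the medians were 0.67 (58268416 to 59427726) and 0.5 (48864234 to 49378359). An array on chromosome 1 (174886898 to 176379732) had 0.48, and another on chromosome 7 (147347908 to 147908110) had 0.4. The largest array, on chromosome 2, had 0.2. Higher 5mC was thus not particular to the class I array, and the difference was not tested. The class I members were higher than the other Olfr members in 5mC in each library, with medians of 0.5 against 0.2 in Th1, 0.4 against 0.2 in Th2, 0.3 against 0.2 in iTreg, 0.4 against 0.2 in Th17 and 0.5 against 0.3 in naive cells. Median 5hmC was 5.74 against 4.78 and input 1.4 against 1.3. The mean number of CpGs in the 250 bases before the start was 1 against 0.954.

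The other large arrays had low medians. The largest, on chromosome 2 (85171123 to 90241830), held 286 odorant receptors with median 5hmC of 3.76, 5mC of 0.20 and input of 1.1. The lowest was a Vmn1r array on chromosome 7 (20686506 to 24840709), with median 5hmC of 2.66, 5mC of 0.12 and input of 0.8. It kept 25 of its 78 receptor areas, the rest being below the 5hmC minimum. Without the minimum its medians were 0.2 in 5hmC and 0 in 5mC. The Tas2r array on chromosome 6 (131579909 to 133045948) had 28 members with medians of 4.57 in 5hmC and 0.18 in 5mC. Its strongest member, Tas2r105, a receptor for cycloheximide, had 5hmC of 9.0 in Th1, 4.5 in Th2, 12.4 in iTreg, 6.0 in Th17 and 6.3 in naive cells. The Tas2r family's top member in 5hmC, Tas2r143 (9.36), lay under the median gene area of 11.3.

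Levels also differed with cluster size. In the 65 clusters with fewer than 10 members, which held 157 members, median 5hmC was 5.82, 5mC 0.34 and input 1.4. In the 23 clusters of 10 to 49 members the medians were 5.26, 0.28 and 1.3, and in the 9 clusters of 50 to 99 members 4.62, 0.22 and 1.2. In the 3 clusters with at least 100 members, which held 567, they were 4.32, 0.24 and 1.2, so 5mC did not follow cluster size throughout. Distance to other genes, meaning non-receptor gene areas of at least 3000 bp, was examined next. Gene areas whose symbol began with LOC, Mir, Snor or Gm and a digit did not count. Neither did those ending in Rik, or in -ps with or without a number. For members within 30 kb of a gene area that counted, the medians were 6.8 in 5hmC, 0.38 in 5mC and 1.6 in input (193 members). From 30 to 100 kb they were 5.63, 0.30 and 1.4 (400 members), from 100 to 300 kb 4.74, 0.24 and 1.2 (646 members) and beyond 4.16, 0.20 and 1.1 (695 members). Input moved with both marks, and its part in this was not tested. On the log2 scale, median 5hmC over the Th17 input was 1.92 in the nearest group, then 1.76, 1.64 and 1.58 in the farthest.

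CpG number before the start moved with the marks as well. Members with 0 CpGs in the 250 bases had medians of 4.65 in 5hmC, 0.22 in 5mC and 1.2 in input (524 members). With 1 CpG they were 4.50, 0.24 and 1.2 (399 members), with 2 CpGs 5.22, 0.28 and 1.3 (183 members), and with 3 CpGs 6.01, 0.38 and 1.3 (62 members). The 47 members with at least 4 CpGs had 8.14, 0.54 and 1.7. Their 5hmC over input was 2.08, against 1.59 with 0 CpGs, and their 5mC over input -1.20, against -1.75. Both splits were chosen after the data had been seen and are descriptions. The CpG content of the gene areas themselves was not used here.

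For the genes that serve these receptors, a list of 34 signalling and choice genes was used, from the G proteins and channels of the sensory cells to the factors that govern odorant receptor choice. All 34 were measured and 24 lay above the median gene area in 5hmC. Of 33 fitted, 7 were called higher and 4 lower in 5hmC relative to 5mC by limma after centring, beside 10.0% higher and 13.7% lower over all gene areas fitted. Their median 5hmC was 16.0 and median 5mC 1.03, while the median length was many times that of a receptor area. Gnai2, the G protein partner of Vmn1r receptors and also a protein of lymphocytes, had 5hmC of 38.4 in Th1, 40.2 in Th2, 35.8 in iTreg, 26.4 in Th17 and 87.8 in naive cells. Gnat3, the gustducin subunit of taste cells, had 4.3 in Th1, 2.8 in Th2, 5.0 in iTreg, 4.9 in Th17 and 4.8 in naive cells, a level like that of the receptors. Calhm3, a channel of taste cells, had 83.8 to 112.0 in the differentiated libraries and 69.2 in naive cells. Gng13 had a log2 difference between 5hmC and 5mC of -1.78 after centring, and Cngb1 was listed at 0 in every library.

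IgG was at least 10 in 26 members (1.34%) and in 0.605% of all gene areas, and above input in 430 members (22.2%) and in 21.5% of all gene areas.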

How the data were processed

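The deposited table gives 1 signal value for each gene area and library, as the authors made it, with 1 decimal. The submitters' processing notes name CASAVA 1.7.0 and build mm9. How reads were counted and scaled is not given in the sources used here, so depth is unknown and no counting interval could be given. Whether coordinates count from 0 or 1 is not stated. An antibody captures fragments with many modified cytosines better than those with few, so signal also depends on CpG content.

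Of 37752 rows, 208 with a repeated symbol were left out (50 of receptors), keeping the row with the highest mean; 0 value columns were left unused. The members and the signalling list were chosen with earlier results of these data known. Log2 values were taken after adding 0.2. Cell types, with 1 library each, were compared by size alone, at 2-fold. The 5hmC against 5mC fit used limma 3.58.1 (trended empirical Bayes, R 4.3.3) on libraries centred at the median gene area, with cell type as a block, so its error is the spread between cell types. The fit was tested on values simulated on the log2 scale, without zeros, rounding or an added 0.2. That test therefore does not cover 5mC values near 0. Promoter stretches were matched by gene identifier, which 1921 members share with the RefSeq table. Python 3.11.15, numpy 2.4.6, pandas 2.3.3 and matplotlib 3.10.9 were used.

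Gene areas were named by rule: per family the 3 highest and 2 lowest in 5hmC, the 2 largest differences from naive each way (at least 900 bp), the highest in 5mC and input, those at the minimum, the strongest member of each cluster and the 3 highest and 3 lowest signalling genes; not all are described. The chromosome 15 and Taar members were added after their values were seen.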

Additional observations from a re-analysis of the deposited data

Results flagged for a closer look

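The Taar members' median log2 5hmC difference from naive cells was 0.34 in the library labelled Th17 and -0.20 in Th2, a gap of 0.54 between cell types of opposite sign. The Tas2r members' median was 0.42 in Th1 and -0.17 in the library labelled Th17, a gap of 0.60. Neither difference was tested, since each cell type has 1 library, and the families hold 16 and 39 members. Within each family single members did not all follow the median: 5 of 16 Taar members were below naive in Th17 and 13 of 39 Tas2r members were below naive in Th1.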

How the results depend on the processing

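Of 322 recomputed values of 59 results, 238 stayed close to the reported one, 82 moved and 2 turned sign; the cause was not tested. Without the 5hmC library labelled iTreg the mean difference from naive was -0.15 in Taar and -0.022 in Tas2r, and without that of Th2 it was 0.24 and 0.098. The median 5hmC difference over all members was 0.43 with median-ratio scaling and 0.21 without the 5hmC minimum. Members at least 2-fold off in the 4 libraries' mean, 285 higher and 140 lower in 5hmC and 40 and 160 in 5mC, were 165 and 93 in 5hmC and 0 and 2 in 5mC with a pseudocount of 1, and 114 and 274 in 5mC with 0.1. As reported, the 5hmC shares were 14.7% higher and 7.24% lower, against 4.73% and 14.7% of all gene areas. In 5mC they were 2.07% and 8.27%, against 1.1% and 3.22%. Against 5mC, in place of 39 higher and 420 lower receptors, limma gave 1945 and 0 without centring and 17 and 776 with a pseudocount of 1. Without the replicate block (cell type) it gave 40 and 436, so the block changed the calls little. Leaving out a cell type gave 37 to 57 higher and 302 to 355 lower. Shares over all gene areas under these other settings were not counted. 5hmC over input was 1.27 with a pseudocount of 1 and 1.55 for input of at least 1, and 5mC over input -0.79 and -1.79. The chromosome 7 Vmn1r cluster without the minimum had medians of 0.2 and 0. Joining only up to 0.5 Mb left the medians of the chromosome 15, class I, Taar and chromosome 2 clusters unchanged. Without the minimum the class I and chromosome 2 clusters did not move beyond their spread between libraries. In the chromosome 15 and Taar clusters every receptor is a member, so leaving out the minimum could not change them. Depth is unknown, and rounding to 1 decimal limits 5mC.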

Other observations

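Several members stood out in IgG. Olfr1345-ps1, the strongest member of a mixed chromosome 7 array, had an IgG signal of 13.1 with input of 2.1, while its 5hmC was 65.5 in Th1, 75.7 in Th2, 39.2 in iTreg, 46.2 in Th17 and 31.9 in naive cells. Taar7c-ps had 8.0 in IgG and 0.7 in input, with 5hmC of 2.5 to 4.4. Members within 30 kb of other genes, as defined above, had a median 5hmC difference from naive of 0.12 in the 4 libraries' mean. It was 0.27 at 30 to 100 kb, 0.33 at 100 to 300 kb and 0.22 beyond. By the number of CpGs before the start, it was 0.28 with 0, 0.21 with 1, 0.23 with 2, 0.20 with 3 and -0.07 with at least 4.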
